A study of Mus musculus with 12 samples.

Results

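The 9 long noncoding RNA genes studied here were chosen by name, with earlier results of these data known. They are the snoRNA host genes Gas5, Snhg1, Snhg3, Snhg5, Snhg6, Snhg8 and Snhg12, and the nuclear RNAs Neat1 and Malat1. A probe of the array belonged to a member if the RefSeq transcript it is annotated to is a transcript of that gene. By this rule 7 of the 9 genes were measured, each by 1 probe spotted once, among 20859 genes tested on the array. No probe matched Gas5 or Snhg8, so no level is given for either. The 7 member probes were well above background on all 12 arrays, and none was saturated.

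Peritoneal macrophages of wild-type C57BL/6 mice aged 8 weeks were plated, freed of non-adherent cells and kept overnight without serum before treatment. RNA on 4 arrays was that of cells given IL4 at 10 ng/ml together with emodin at 50 uM, RNA on 4 others that of cells given IL4 at 10 ng/ml alone, and 4 arrays held vehicle controls. IL4 is the cytokine that drives the alternative activation of macrophages, and emodin is a plant anthraquinone. Each sample is described as treated for 6 h where the treatment protocol says overnight, and the design text of the series names white blood cells where the sample labels name peritoneal macrophages.

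The samples were checked against these labels. Of 11 macrophage markers 10 had a probe, and their summed signal relative to the array's 75th percentile was 667 to 790 on IL4 plus emodin arrays, 721 to 815 on IL4 arrays and 658 to 670 on control arrays. The same sum over 10 measured neutrophil markers was 39.3 to 62.1 with IL4 plus emodin, 21.4 to 32.3 with IL4 and 29.4 to 42.1 in controls. Over 11 lymphocyte markers it was 8.33 to 18.0 with IL4 plus emodin, 8.94 to 10.5 with IL4 and 10.8 to 11.9 in controls. Of the lymphocyte genes Cd3d, Cd3g, Cd8a and Pax5 were well above background on no array, nor were the eosinophil genes Prg2 and Epx or the neutrophil gene Ngp. Other markers were well above background on all arrays of a group. These were 5 of 10 neutrophil markers with IL4 plus emodin, 6 with IL4 and 6 in controls. For the 11 lymphocyte markers they were 4, 6 and 6 in the same order, and for 9 mast cell and eosinophil markers 4, 5 and 3. Sums for mast cell and eosinophil markers and for mesothelial and fibroblast markers overlapped between all groups. Their part in the results was not tested. In each group replicates 1 and 2 are labelled female and replicates 3 and 4 male, and the data went against the male label. The Y-linked genes Ddx3y, Eif2s3y, Kdm5d and Uty were well above background on 0 of 6 arrays labelled male, and Xist was well above background on 6 of 6 of them. Its level on arrays labelled male was 0.01 to 1.21 log2 units relative to the 75th percentile, against -0.01 to 1.43 on arrays labelled female.

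The layout of the arrays limits every comparison with emodin. The arrays with IL4 plus emodin were on a slide of their own, while the IL4 and control arrays shared a different one. An effect of the slide and one of emodin therefore cannot be told apart. The IL4 and the control arrays lay in different rows of their slide, so row and IL4 cannot be told apart either. In every group the replicate number was also the array's column on its slide. Column and replicate therefore cannot be told apart, and the sex label went with the column too. The 75th-percentile signal was 488 ± 31.4 on IL4 plus emodin arrays, 776 ± 24.5 on IL4 arrays and 730 ± 74.0 on control arrays (SD, n = 4 each). Because the emodin arrays were dimmer, the members' differences are also given after quantile normalisation and relative to the synthetic spike-in RNAs.

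Small nucleolar RNAs (snoRNAs) guide the methylation and pseudouridylation of ribosomal and other RNAs, and most of them are cut from the introns of host genes. In a noncoding host gene the spliced exons that remain code for no known conserved protein, and many such transcripts open with a run of pyrimidines and are broken down by nonsense-mediated decay, which ties their level to translation. Neat1 and Malat1 lie next to each other and stay in the nucleus, where Neat1 forms the scaffold of paraspeckles and Malat1 gathers at nuclear speckles, the stores of splicing factors. The RefSeq annotation places 8 snoRNA genes inside Snhg1, 4 inside Snhg12, 2 each inside Snhg3 and Snhg5, 1 inside Snhg6 and 0 inside Neat1 and Malat1. The array reads the host transcript and not the snoRNAs cut from it.

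With emodin added to IL4, 4 of the 5 measured snoRNA hosts and Malat1 were 2.55-fold to 3.46-fold higher than with IL4 alone, and Snhg3 was lower. Neat1, the other nuclear RNA, was 1.34-fold higher on the 75th-percentile scale, a difference that changed direction under other scalings. In limma's moderated test with Benjamini-Hochberg adjustment over all genes, 6 of the 7 members were called higher and 1 lower at an adjusted p under 0.05. The background was high, since 65.9% of all genes tested were called, with 39.4% of the genes tested called higher and 26.5% lower. The groups did not overlap for 7 of 7 members and for 60.4% of all genes. The median difference was 1.38 log2 units over the members and 0.17 over all genes.

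**Figure D1:**
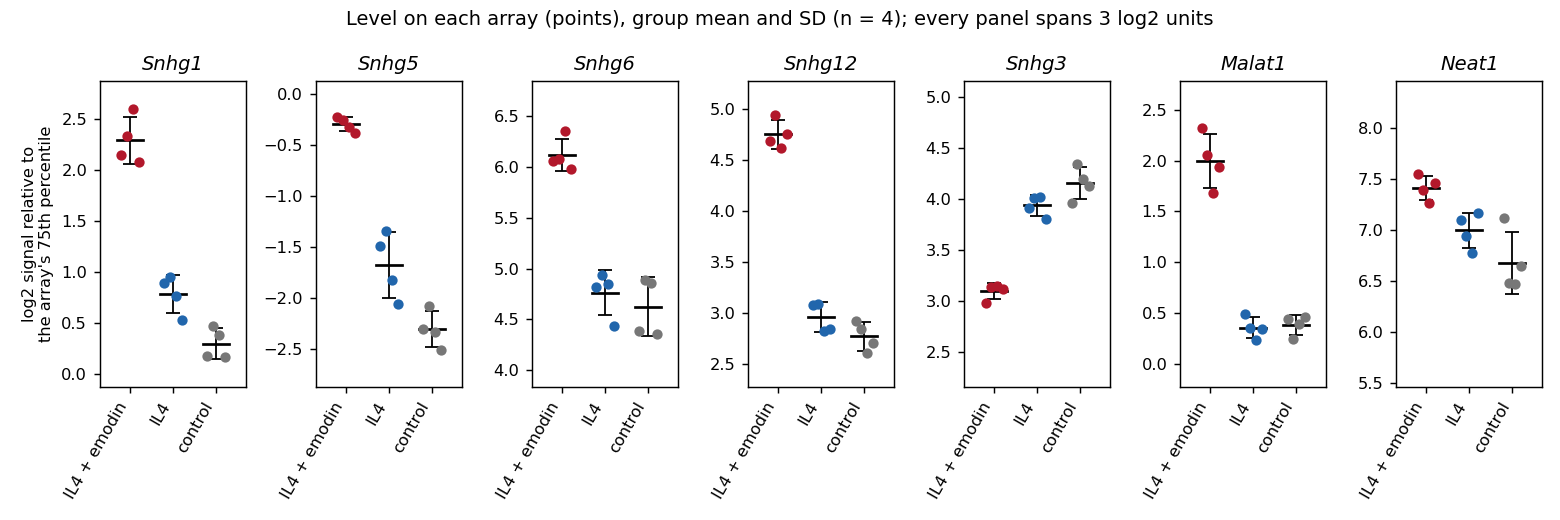
Log2 signal relative to the array's 75th percentile (vertical axis) of the 7 measured RNAs on each array, with IL4 plus emodin left of IL4 and control. Points are arrays, and black lines and bars are the group mean and SD (n = 4); each panel spans the same number of log2 units, and the 4 emodin points lie above all IL4 and control points for Snhg1, Snhg5, Snhg6, Snhg12, Malat1 and Neat1 and below all of them for Snhg3.

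Snhg12 had the largest difference of the 7 members. Its intron-borne snoRNAs are Snora16a, Snora44, Snora61 and Snord99. On the log2 scale relative to the 75th percentile it stood at 4.69, 4.95, 4.63 and 4.76 on the 4 IL4 plus emodin arrays, at 3.08, 3.09, 2.83 and 2.85 on the 4 IL4 arrays, and at 2.92, 2.85, 2.61 and 2.71 on the 4 control arrays. The emodin arrays were all above the other 8, while IL4 and control arrays overlapped. The difference from IL4 alone was 1.79 ± 0.10 log2 units (SE, limma adjusted p = 4.54e-08), a 3.46-fold higher signal. Its unscaled signal was also higher, at 13260 ± 2017 on emodin arrays, 6077 ± 722 on IL4 arrays and 5033 ± 925 on control arrays (SD, n = 4 each).

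Snhg1, which carries Snord22 and 7 further annotated snoRNA genes, had a graded order over the groups. Its log2 level was 2.14, 2.33, 2.60 and 2.08 with IL4 plus emodin, 0.89, 0.95, 0.76 and 0.52 with IL4, and 0.17, 0.46, 0.38 and 0.16 in the controls. No array of a group reached into the next group. Emodin with IL4 exceeded IL4 alone by 1.51 ± 0.13 log2 units (limma adjusted p = 1.29e-06), or 2.84-fold.

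Snhg5, the human counterpart of which hosts the Snord50 snoRNAs, also rose. The 4 emodin arrays held -0.23, -0.26, -0.32 and -0.38, the 4 IL4 arrays -1.49, -1.34, -1.82 and -2.06, and the 4 control arrays -2.30, -2.08, -2.33 and -2.51. The same order as for Snhg1 was seen, with no overlap between groups on this scale and the widest spread among the IL4 arrays. IL4 and control arrays were only 0.018 apart there. After quantile normalisation they overlapped, with control replicate 2 at 7.33 and IL4 replicate 4 at 7.32. With emodin it was 1.38 ± 0.15 log2 units, or 2.61-fold, above IL4 alone (limma adjusted p = 5.81e-06).

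Snhg6, host of Snord87, had log2 levels of 6.06, 6.08, 6.35 and 5.98 with IL4 plus emodin, 4.82, 4.94, 4.85 and 4.44 with IL4 and 4.38, 4.89, 4.86 and 4.36 in the controls. Every emodin array exceeded every other array, and IL4 and control arrays overlapped. The difference between IL4 plus emodin and IL4 was 1.35 ± 0.15 log2 units (limma adjusted p = 1.06e-05), or 2.55-fold.

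Snhg3 went the other way. It hosts Snora73a and Snora73b, which act in the early processing of the ribosomal RNA precursor. Its level was 2.98, 3.14, 3.14 and 3.12 on the emodin arrays, 3.92, 4.02, 4.02 and 3.80 on the IL4 arrays and 3.96, 4.34, 4.20 and 4.13 on the control arrays. All emodin arrays were below all others. It fell by 0.84 ± 0.09 log2 units with emodin relative to IL4 alone (limma adjusted p = 7.29e-06), which is 1.79-fold lower in IL4 plus emodin. The unscaled signal was 4168 ± 265 on emodin arrays, 11906 ± 836 on IL4 arrays and 13070 ± 1742 on control arrays (SD, n = 4 each).

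Malat1 stood at 2.32, 2.06, 1.68 and 1.93 with IL4 plus emodin, 0.50, 0.36, 0.24 and 0.35 with IL4, and 0.44, 0.25, 0.40 and 0.46 in the controls. IL4 and control arrays were mixed within one narrow range, and the emodin arrays stood apart with a wider spread (SD 0.27, against 0.11 with IL4 and 0.10 in controls). The difference from IL4 alone was 1.64 ± 0.12 log2 units, or 3.11-fold (limma adjusted p = 3.26e-07).

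Neat1 had a log2 level of 7.55, 7.39, 7.27 and 7.46 with IL4 plus emodin, 7.10, 6.94, 6.78 and 7.17 with IL4, and 7.12, 6.48, 6.47 and 6.64 in the controls. The emodin arrays were the highest 4, by a gap of 0.10 over the nearest IL4 array, and 1 control array lay among the IL4 arrays. The difference from IL4 was 0.42 ± 0.14 log2 units (limma adjusted p = 0.0212). Without IL4 replicate 3 it was 0.35 (adjusted p = 0.0653) and without emodin replicate 1 it was 0.38 (adjusted p = 0.0554). The call was also lost when replicate 2, 3 or 4 was left out of all groups (adjusted p = 0.0765, 0.0574 and 0.0540). The unscaled signal ran the other way, at 83745 ± 11008 with IL4 plus emodin and 99708 ± 13150 with IL4 (SD, n = 4 each). RefSeq holds more than 1 Neat1 transcript, and which of them this probe reads was not analysed here.

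In IL4 plus emodin against IL4, the scaling changed the size of the differences and the calls of 3 members. Quantile normalisation moved the median of all genes to 0.02 for IL4 plus emodin against IL4 and to 0.01 against control, while spike-in scaling moved it to -0.92 and -0.80. In IL4 plus emodin against IL4, 29.4% of all genes were called higher and 30.9% lower after quantile normalisation, and 3.46% higher and 80.7% lower with spike-in scaling. Snhg1, Snhg12 and Malat1 were called higher, and Snhg3 lower, under all 3 scalings in IL4 plus emodin against IL4. With spike-in scaling the differences were 0.42 for Snhg1 (limma adjusted p = 0.00499), 0.71 for Snhg12 (0.000405), 0.55 for Malat1 (0.00691) and -1.93 for Snhg3 (7.79e-09). Snhg5 at 0.30 (0.0603) and Snhg6 at 0.27 (0.0718) were then not called, although both stayed above the all-gene median. Neat1 was -0.06 after quantile normalisation (adjusted p = 0.794) and -0.67 with spike-in scaling (adjusted p = 0.00716), where it was called lower. Each array received label from 200 ng of RNA, so the spike-ins scale to labelled RNA and not to cells. Neither the number of cells nor the RNA per cell can be read from this scale. The cause of the lower signal relative to the spike-ins was not tested.

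**Figure D2:**
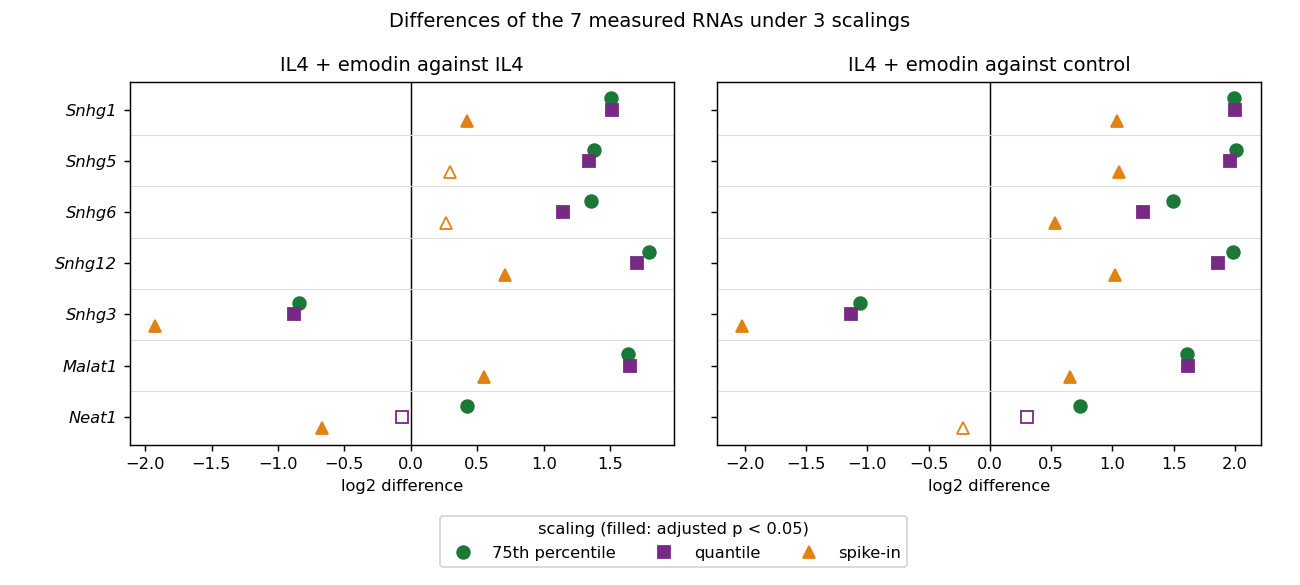
Log2 difference (horizontal axis) of each measured RNA for IL4 plus emodin against IL4 (left) and against control (right) under 75th-percentile, quantile and spike-in scaling. Filled symbols had an adjusted p under 0.05. Snhg1, Snhg5, Snhg6, Snhg12 and Malat1 lie right of 0 under every scaling. Snhg5 and Snhg6 are open in the left panel with spike-in scaling. Snhg3 lies left of 0 under every scaling, while Neat1 crosses 0.

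With IL4 alone, set against control, few of these RNAs were called. Snhg5 rose by 0.63 ± 0.15 log2 units (limma adjusted p = 0.0104), or 1.55-fold, and Snhg1 by 0.49 ± 0.13 (adjusted p = 0.0240), or 1.40-fold. These 2 of 7 members were called, both higher, where 17.5% of all genes were called, 8.97% higher and 8.56% lower. The same 2 members had groups that did not overlap, as did 24.9% of all genes. The median difference was 0.19 over the members and -0.03 over all genes.

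Snhg1 was no longer called without control replicate 1 (difference 0.45, adjusted p = 0.0568), control replicate 4 (0.44, adjusted p = 0.0689), IL4 replicate 1 (0.45, adjusted p = 0.0680), IL4 replicate 2 (0.43, adjusted p = 0.0728) or IL4 replicate 3 (0.49, adjusted p = 0.0515). Its call was also lost when replicate 1, 2 or 3 was left out of all groups (adjusted p = 0.132, 0.0948 and 0.0506). Snhg5 stayed called without any single array and lost its call when replicate 1 or replicate 3 was left out of all groups (adjusted p = 0.0754 and 0.0557). Without control replicate 1, Neat1 was called at 0.46 (adjusted p = 0.0134) and Snhg3 at -0.29 (adjusted p = 0.0413). Same-numbered IL4 and control arrays, which also shared a column of the slide, deviated together. With the replicate number as a block 4 members were called in place of 2, and 25.4% of all genes in place of 17.5%. The block added Neat1 at 0.32 (adjusted p = 0.0377) and Snhg3 at -0.22 (adjusted p = 0.0467), which had adjusted p of 0.159 and 0.125 without it. Snhg6 differed by 0.14 log2 units and Snhg12 by 0.19, short of the threshold, and Snhg12 was called after normexp background correction, at 0.32 with the 75th percentile (adjusted p = 0.0253) and at 0.26 with quantile normalisation (adjusted p = 0.0449). For Malat1 the difference was -0.03, with a 95% interval of -0.29 to 0.24.

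In IL4 against control Snhg1 and Snhg5 were called higher under all 3 scalings, at 0.48 and 0.62 after quantile normalisation and at 0.61 and 0.75 with spike-in scaling. Of all genes, 8.8% were called higher and 9.31% lower after quantile normalisation, and 8.71% higher and 3.09% lower with spike-in scaling. Snhg3 was called lower after quantile normalisation, at -0.25 (limma adjusted p = 0.0292), and when the deposited values were fitted, at -0.26 (adjusted p = 0.0310), but was at -0.10 with spike-in scaling (adjusted p = 0.695). Neat1 was at 0.37 after quantile normalisation and 0.44 with spike-in scaling (adjusted p = 0.222 and 0.196).

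IL4 plus emodin against control shares its arrays with both comparisons above. Snhg5 was 2.01, Snhg1 1.99, Snhg12 1.98, Malat1 1.61, Snhg6 1.49 and Neat1 0.74 log2 units higher, and Snhg3 fell by 1.06, which is 2.09-fold lower with IL4 plus emodin. Again 6 members were called higher and 1 lower, against 62.9% of all genes called, 37.3% higher and 25.6% lower. Groups did not overlap for 7 of 7 members and 54.3% of all genes. Snhg1, Snhg5, Snhg6, Snhg12 and Malat1 were called higher, and Snhg3 lower, under all 3 scalings. Of all genes, 26.8% were called higher and 30.2% lower after quantile normalisation, and 4.12% higher and 75.6% lower with spike-in scaling. The limma adjusted p for Neat1 was 0.000751, but its difference was 0.30 after quantile normalisation (adjusted p = 0.197) and -0.22 with spike-in scaling (adjusted p = 0.314).

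The difference between arrays labelled male and arrays labelled female in a response was tested with an interaction term in limma. It was called for 0 of the 20859 genes, members included, in each comparison, and 272 had an unadjusted p under 0.05 for IL4 against control, 507 for IL4 plus emodin against IL4 and 434 for IL4 plus emodin against control. The smallest unadjusted p among the members was 0.0474, for Malat1 in IL4 plus emodin against control, where the difference was 1.38 on arrays labelled male and 1.85 on arrays labelled female.

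Likeness over the arrays was taken as the root mean square of the difference between 2 genes' log2 levels over the 12 arrays, after each gene's own mean was subtracted. Among the members Snhg1 and Snhg5 were the closest pair at 0.16, followed by Snhg12 and Malat1 at 0.23 and Snhg1 and Snhg6 at 0.23. Genes outside the members were nearer to these hosts. Ppp1r15a was at 0.15 from Snhg1 and 0.13 from Snhg5, Ctdspl2 at 0.10 from Snhg6 and Ptp4a1 at 0.12 from Snhg12. Over all tested genes with a symbol, the nearest to Malat1 were Stam, an adaptor in endosomal sorting, at 0.12, Kctd13, an adaptor of a ubiquitin ligase, at 0.14 and Rdh13, a mitochondrial retinol dehydrogenase, at 0.14. The nearest to Neat1 were Rfx1, a transcription factor, at 0.07, Zc3h3, a zinc finger protein of messenger RNA export, at 0.07 and Vwf, von Willebrand factor, at 0.09. These values describe 12 arrays that share groups and scaling and carry no test.

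The promoters are shown because 4 of these genes, Snhg1, Snhg5, Snhg12 and Malat1, rose together with emodin while Snhg3 fell. They come from RefSeq on GRCm38.p6, in which 7 of the 9 genes had an entry. Snhg6 and Neat1, also called higher, are not among them. Each sequence runs from 60 bases before the annotated start through the 40 bases from it, read on the gene's strand. The windows are chr19:8723427-8723526 on the plus strand for Snhg1, chr9:88522858-88522957 on the minus strand for Snhg5, chr4:132308618-132308717 on the plus strand for Snhg12, chr19:5802633-5802732 on the minus strand for Malat1 and chr4:132353647-132353746 on the minus strand for Snhg3. Capitals mark the longest pyrimidine run that opens with a C within 5 bases of the start, and any TATAAA.
Snhg1: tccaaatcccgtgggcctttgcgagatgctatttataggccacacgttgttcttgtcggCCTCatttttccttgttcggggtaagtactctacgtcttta
Snhg5: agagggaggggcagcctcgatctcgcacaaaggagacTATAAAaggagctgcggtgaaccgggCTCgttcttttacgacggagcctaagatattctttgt
Snhg12: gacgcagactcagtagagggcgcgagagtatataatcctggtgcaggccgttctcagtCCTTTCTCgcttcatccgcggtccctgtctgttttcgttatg
Malat1: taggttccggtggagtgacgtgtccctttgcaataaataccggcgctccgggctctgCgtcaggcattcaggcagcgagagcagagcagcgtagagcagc
Snhg3: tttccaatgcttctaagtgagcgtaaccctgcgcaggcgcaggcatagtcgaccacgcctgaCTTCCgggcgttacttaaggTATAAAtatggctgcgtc

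The pyrimidine run was 8 bases long in Snhg12, 5 in Snhg3, 4 in Snhg1, 3 in Snhg5 and 1 in Malat1. A run of at least 5 was found in 18.3% of 32841 RefSeq promoters. Such a run stood at the start of Snhg12, the member highest in difference between IL4 plus emodin and IL4, and of Snhg3, which fell. The motifs below were sought in the full window of 250 bases before the start and 50 after. TATAAA on the forward strand was found in Snhg3 and Snhg5 and in 8.32% of all promoters. It opened at position -23, before the annotated start, in Snhg5 and at position 23, after it, in Snhg3. CCGGAA, a core of ETS factor sites, was found on either strand in Snhg3, Snhg5 and Malat1 and in 14.9% of all promoters. TGACG, a core of CREB and ATF sites, was found in Snhg12 and Malat1 and in 20.8%. CACGTG, the E-box letters, and TTC followed by GAA after 4 further bases, the spacing of STAT6 sites, were in 0 of the 5 promoters, against 7.15% and 6.95% of all. No motif searched was in all 4 of the promoters shown for genes that rose, and these letter matches only describe the windows.

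On the 75th-percentile scale, genes beside the members did not share one direction. Slc3a2, next to Snhg1 and encoding the heavy chain of amino acid transporters, was higher by 0.70 with IL4 plus emodin against IL4 (limma adjusted p = 2.26e-05) and by 0.48 with IL4 against control (adjusted p = 0.00223). Wdr74 on the other side of Snhg1, a ribosome assembly factor, was lower at -0.29 (adjusted p = 0.0268) in IL4 plus emodin against IL4. Rcc1, the nucleotide exchange factor of Ran, lies beside Snhg3 and was also lower at -0.52 (adjusted p = 3.34e-05), as was Phactr4 at -0.33 (adjusted p = 0.0486). Zfp949 beside Snhg5 was higher by 1.95 (adjusted p = 6.60e-09), and its neighbour on the other side, the RNA-binding protein gene Syncrip, differed by 0.03 (adjusted p = 0.794). Rab42 beside Snhg12 was lower at -2.12 (adjusted p = 6.05e-07), while Trnau1ap differed by -0.14 (adjusted p = 0.263). Frmd8, a protein-coding gene near Neat1 and Malat1, was lower at -1.32 (adjusted p = 2.99e-08). Sgk3, a kinase gene beside Snhg6, was higher by 0.43 (adjusted p = 0.000411).

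**Figure D3:**
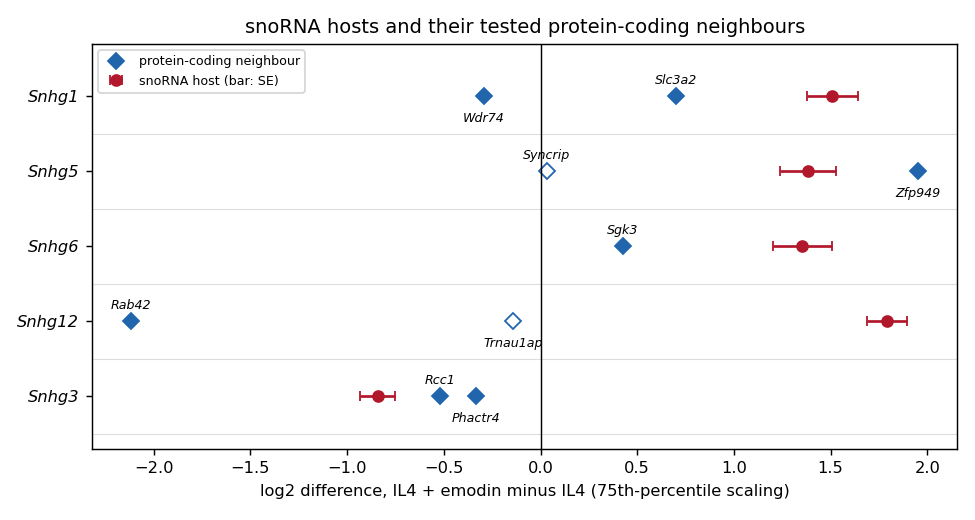
Log2 difference, IL4 plus emodin minus IL4, on the 75th-percentile scale (horizontal axis) for each measured snoRNA host (circles, bars are the SE) and its nearest tested protein-coding genes (diamonds, filled where the adjusted p was under 0.05). The neighbours lie on both sides of 0 for Snhg1, below 0 for Snhg3 and Snhg12 and above 0 for Snhg5 and Snhg6.

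The other noncoding snoRNA hosts were split too. Of 13 listed genes 7 were tested. In IL4 plus emodin against IL4 3 were called higher and 4 lower, with a median of -0.21. On that 75th-percentile scale 39.4% of all genes were called higher and 26.5% lower. With spike-in scaling 2 of the 7 were called higher and 5 lower, where 3.46% of all genes were called higher and 80.7% lower. Snhg16 stood 2.62 higher and Snhg15 2.23 higher (limma adjusted p = 1.37e-09 and 2.55e-09), and both were also called higher with spike-in scaling, at 1.53 and 1.15. Dancr at -0.89 and Snhg7 at -0.53 were called lower (adjusted p = 4.70e-06 and 0.000150). Snhg15 was called in IL4 against control as well, at 0.32 (adjusted p = 0.0233).

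The protein-coding snoRNA hosts depended on the scaling. Of 39 tested genes, 31 were called higher and 7 lower in IL4 plus emodin against IL4 on the 75th-percentile scale, with a median of 0.74, but 10 higher and 7 lower after quantile normalisation, with a median of 0.11. With spike-in scaling 0 were called higher and 23 lower, with a median of -0.35. Of all genes, 39.4% were called higher and 26.5% lower on the 75th-percentile scale, and 29.4% and 30.9% after quantile normalisation. With spike-in scaling 3.46% of all genes were called higher and 80.7% lower, with a median of -0.92. Eif5, Eif4a2 and Taf1d were 1.22, 1.13 and 1.28 higher, and 0.96, 0.91 and 1.28 higher after quantile normalisation. The 61 tested cytosolic ribosomal protein genes, which share the pyrimidine start with many host genes, depended on it too, with 61 called higher on the 75th-percentile scale at a median of 0.75, 8 called higher after quantile normalisation at 0.07, and 40 called lower with spike-in scaling at -0.33. Rpl24 was 1.16 higher on the 75th-percentile scale, 0.45 higher after quantile normalisation and 0.08 higher with spike-in scaling.

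The next list holds genes for the proteins that build and carry snoRNAs. In IL4 against control 3 of 16 were called higher and 0 lower, and in IL4 plus emodin against control 1 higher and 9 lower. Of all genes, 8.97% were called higher and 8.56% lower in IL4 against control, and 37.3% and 25.6% in IL4 plus emodin against control. Of the 16 tested snoRNP core and assembly genes, 0 were called higher and 9 lower in IL4 plus emodin against IL4, with a median of -0.47, where 39.4% of all genes were called higher and 26.5% lower. After quantile normalisation 10 of the 16 were called lower, where 30.9% of all genes were, and with spike-in scaling 16 of 16, where 80.7% of all genes were. Dkc1, the pseudouridine synthase of H/ACA particles and itself a snoRNA host, was at -2.02 (limma adjusted p = 8.62e-07). Ruvbl1 and Znhit6, which assemble box C/D particles, were at -0.90 and -0.62, and Nop10, an H/ACA core protein, at -0.50 (adjusted p = 2.72e-06, 0.000120 and 0.0111).

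Nonsense-mediated decay factors went both ways in IL4 plus emodin against IL4, with 4 of 13 tested called higher, 6 lower and a median of -0.36. On the 75th-percentile scale 39.4% of all genes were called higher and 26.5% lower. Upf2 at -0.96, Upf3b at -0.71 and the endonuclease gene Smg6 at -0.71 were lower, and Upf3a was higher by 0.66 (limma adjusted p = 1.78e-07, 1.02e-05, 6.93e-05 and 7.24e-06). With spike-in scaling Upf3a was at -0.43, and 13 of 13 were called lower, where 80.7% of all genes were.

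The protein partners of Neat1 and Malat1 were also divided. Of 12 tested paraspeckle proteins 7 were called higher and 4 lower in IL4 plus emodin against IL4, with a median of 0.29. On this 75th-percentile scale 39.4% of all genes were called higher and 26.5% lower. Sfpq, a core paraspeckle protein that binds Neat1, was at -2.51 (limma adjusted p = 1.10e-08), and Hnrnph3 was higher by 2.17 (adjusted p = 4.09e-05). Both kept their call with spike-in scaling, at -3.59 and 1.08, while Dazap1 and Hnrnpk were at 0.62 and 0.47 on the 75th-percentile scale and at -0.47 and -0.62 with spike-in scaling. Of 13 nuclear speckle and Malat1 partner proteins 4 were called higher and 6 lower, with a median of -0.16. The splicing factor gene Srsf3 was at -1.41, Pnn at -1.05, Hnrnpc at 1.36 and the speckle protein gene Srrm1 at 1.07 (adjusted p = 8.77e-07, 2.48e-06, 6.22e-08 and 8.31e-05). With spike-in scaling Hnrnpc was 0.28 (adjusted p = 0.0534) and Srrm1 -0.02 (adjusted p = 0.937).

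**Figure D4:**
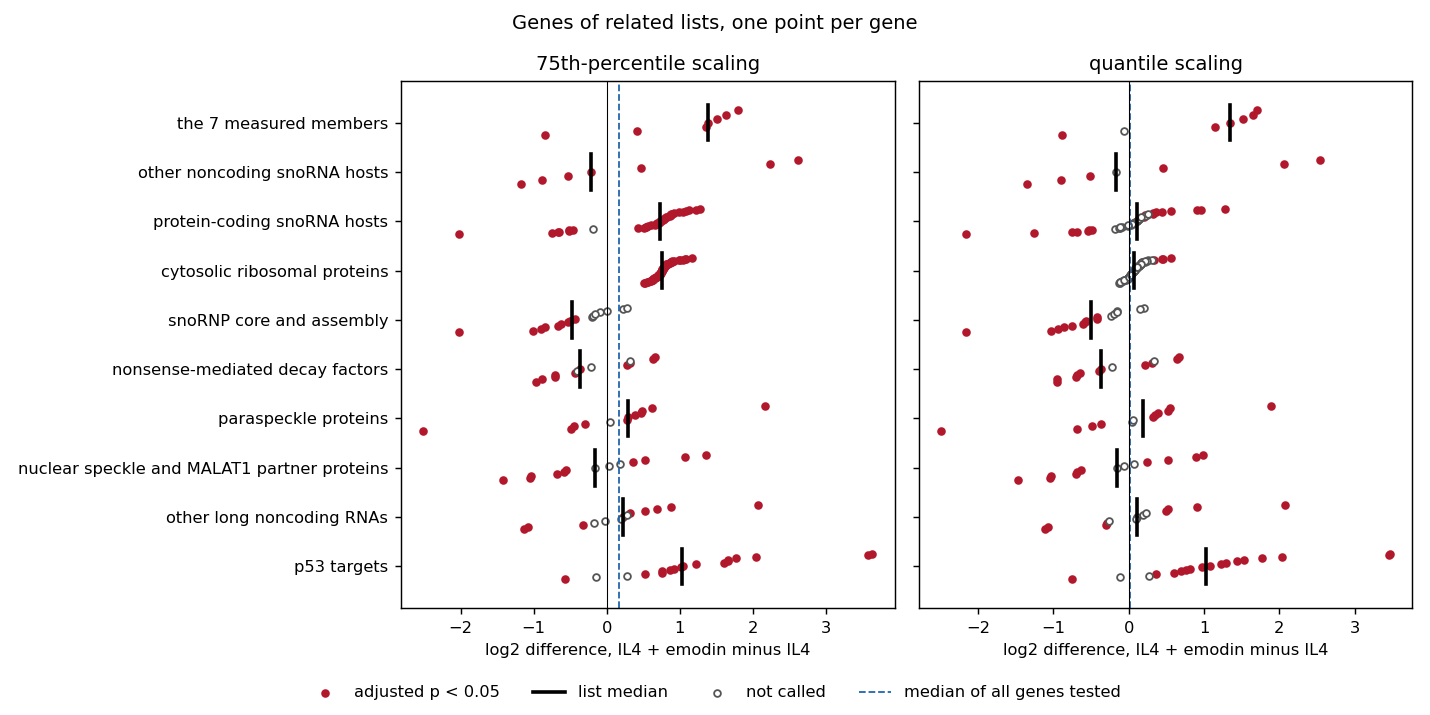
Log2 difference, IL4 plus emodin minus IL4 (horizontal axis), of every tested gene of 10 lists on the 75th-percentile scale (left) and after quantile normalisation (right). Filled points had an adjusted p under 0.05, black bars are list medians and the dashed line is the median of all genes; the median of the 7 members is 1.38 on the left and 1.34 on the right, while that of the ribosomal proteins is 0.75 on the left and 0.07 on the right.

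Other long noncoding RNAs gave a background for the members. In IL4 plus emodin against IL4, 303 tested RefSeq long noncoding RNA genes other than the members had a median of 0.17. Of them 113 were called higher (37.3%) and 82 lower (27.1%), with genes of the other lists not removed. Of 12780 protein-coding genes 33.7% were called higher and 32.7% lower, with a median of 0.04. Among 13 tested long noncoding RNAs with known roles, 6 were called higher and 3 lower. Pvt1, the neighbour of Myc, was higher by 2.07 (limma adjusted p = 3.09e-06), and Tug1 was lower at -1.13 (adjusted p = 8.68e-07). Xist, which silences an X chromosome, was higher by 0.88 (adjusted p = 0.000220) and was at -0.21 with spike-in scaling (adjusted p = 0.330).

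Targets of p53 were listed because Neat1 is among the genes that p53 is known to induce. Of 18 tested targets 15 were called higher and 1 lower in IL4 plus emodin against IL4, with a median of 1.03. On that 75th-percentile scale 39.4% of all genes were called higher and 26.5% lower. After quantile normalisation the counts were the same, with a median of 1.02, where 29.4% of all genes were called higher and 30.9% lower. With spike-in scaling 7 were called higher and 6 lower, where 3.46% of all genes were called higher and 80.7% lower. Gtse1 was at 3.64, Phlda3 at 3.58, Ddit4 at 2.05 and Cdkn1a, a cell cycle inhibitor gene, at 1.60 in that comparison (limma adjusted p = 8.87e-10, 6.12e-08, 9.41e-07 and 2.22e-07). Cdkn1a was also higher by 0.79 with IL4 against control (adjusted p = 0.000447). Of the IL4 response genes, Arg1, the arginase of alternatively activated macrophages, was at 6.91 and Cish at 8.90 in IL4 against control, and they were at -2.70 and -2.77 in IL4 plus emodin against IL4.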

How the data were processed

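Labelled RNA of 12 samples (Cy3, 1 colour, 200 ng each) was hybridised to 12 Agilent arrays, 4 per group. The deposited scanner intensity values are, per the file headers, the processed signals that Agilent Feature Extraction wrote (version 10.7.3.1 per the submitters' processing notes). The authors also deposited a table of log2 values with scale and centring unstated. Its columns, with medians close to 0, correlated at 1.00 with quantile-normalised, probe-centred scanner values on all 12 arrays, and it served as an alternative.

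From the scanner files, log2 processed signal minus the array's 75th percentile was computed over 55681 non-control probes. Outlier spots were left out, and 27702 probes were well above background on every array of at least 1 group. The passing probe with the highest mean stood for its gene, giving 20859 genes, 13194 of them with a symbol. RefSeq accessions named 27509 probes. limma 3.58.1 in R 4.3.3 fitted the 3 group means over all arrays with 9 residual degrees of freedom, with Benjamini-Hochberg adjustment over all genes and a threshold of 0.05. The spike-in scale used 7 of the 10 control transcripts' probes. The design text calls the replicates biological, with no word on separate mice. The number of arrays limits the precision. The procedure was run on simulated data with independent noise and few changed genes. That setting differs from the comparisons with emodin, where 65.9% (against IL4) and 62.9% (against control) of all genes were called.

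Genes named beside members were, from each list, at most 4 with the biggest called differences in IL4 plus emodin against control. Also named were the nearest protein-coding neighbours, the 3 nearest genes for Neat1 and Malat1, and the nearest for Snhg1, Snhg5, Snhg6 and Snhg12. Members and lists were chosen with earlier results of these data known. Same-numbered arrays deviated together for IL4 and control (correlations of 0.52, 0.31, 0.33 and 0.44). Alternatives were quantile and spike-in scaling, normexp on the median signal, filters, percentile choices, the replicate block, the deposited table and leaving out arrays.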

Additional observations from a re-analysis of the deposited data

Results flagged for a closer look

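Snhg3 on replicate 1 of IL4 plus emodin stood at 2.98 log2 units relative to the 75th percentile, apart from 3.12 to 3.14 on the other 3 arrays of its group, by Dixon's test for a single outlying value. Chance flags about 1 in 20 such groups, and 21 groups were examined. Without that array Snhg3 remained lower in IL4 plus emodin in both comparisons.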

How the results depend on the processing

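In 14 alternatives that kept all arrays, Snhg1, Snhg12, Malat1 and Snhg3 kept their direction and call in both comparisons with emodin. Snhg5 and Snhg6 did too, except against IL4 with spike-in scaling (0.30 and 0.27). Neat1 in IL4 plus emodin against IL4 turned to -0.063 with quantile, -0.67 with spike-in, -0.042 with normexp and quantile, and -0.069 in the deposited table, and against control to -0.22 with spike-in scaling. A percentile over probes detected on all arrays, chosen after seeing the data, gave Neat1 0.37 (limma adjusted p = 0.0514). Malat1 in IL4 against control, near 0, changed sign with spike-in scaling (0.10) and without replicate 3 (0.018), replicate 4 (0.0038) or IL4 replicate 3 (0.014), in a range of -0.073 to 0.018 with arrays left out. The cause was not tested.

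Members called in IL4 against control numbered 4 under normexp with the 75th percentile, normexp with quantile, and the replicate block. Of all genes, 26.6%, 25.1% and 25.4% were called under these settings, against 17.5% in the main fit. With arrays left out 0 to 3 members were called, and 10.3% to 18.1% of all genes. In IL4 plus emodin against IL4 6 to 7 of 7 members were then called, and 58.7% to 66.8% of all genes. Against control 7 members were called, and 55.2% to 62.5% of all genes. Genes called in IL4 against control numbered 3657, against 5543 with normexp and 7321 with no filter on dim probes, and 2151 to 3773 with arrays left out. With no filter, 22743 were called in IL4 plus emodin against IL4 and 19856 against control, where more genes were tested. Of all calls in IL4 plus emodin against IL4, 59.7% were higher on the 75th-percentile scale, 48.8% after quantile normalisation and 4.11% with spike-in scaling; against control the shares were 59.3%, 47.0% and 5.17%. In IL4 against control they were 51.2%, 48.6% and 73.8%. With the replicate block 15094 genes were called in IL4 plus emodin against IL4 and 14512 against control, and it changed no other member's call. Same-numbered emodin and IL4 arrays correlated at 0.09 to 0.44 in their deviations.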
